A study of Homo sapiens with 12 samples.

Results

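Of 7129 HSF1 peaks called on chromosomes 1 to 22 and X in untreated Huh7 cells, 407 (5.71%) lay at divergent coding promoters. A peak was counted here when its summit, the base with the highest signal, was within 1 kb of the outermost starts of at least 2 protein-coding genes on opposite strands, with the minus-strand start to the left of the plus-strand start. The rule used position and annotation only, so height, sequence and the second library were free to vary. Another 2890 peaks had 1 coding start within 1 kb, 325 had several coding starts without a divergent pair, and 3507 had none.

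Huh7 is an established hepatocellular carcinoma line, and both libraries came from wild-type cells that received no heat shock, siRNA or other agent. Each library was made by CUT&Tag, in which an antibody brings a transposase to chromatin so that nearby DNA is cut and tagged. One antibody was against HSF1 and the other against acetylated lysine 27 of histone H3 (H3K27ac), with 1 library per antibody. The HSF1 list rested on 2712212 of 3604911 tags, 75.2%, after duplicates were removed, and the H3K27ac list on 896393 of 15737890, 5.70%. No test across replicates was possible, and every interval below is a 95% interval that covers counting error only. The peaks were called without a control library, and the sample without primary antibody was not used here.

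HSF1, heat shock factor 1, is the transcription factor that trimerises under protein stress and binds inverted repeats of GAA, the heat shock element, in front of chaperone genes. A divergent, or bidirectional, promoter is a short stretch of DNA from which neighbouring genes are transcribed away from each other. Such promoters are usually rich in CpG and poor in TATA boxes, they are known for housekeeping and DNA repair genes, and CCAAT boxes, the site of the factor NF-Y, are common in them.

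The sequences below show what lay under the tallest of these peaks. Each is the part of the 100 bp to either side of the HSF1 summit that fell between the starts, on the plus strand of hg38, and stretches under 150 bp or overlapping an annotated exon of any coding gene were passed over. The first 4 are, apart from KCTD9/CDCA2, the members with the highest fold enrichment that held CCAAT in such a stretch, and capitals mark CCAAT or its reverse complement ATTGG. They come from chr17:17972428-17972628, chrX:14873256-14873420, chr11:108222677-108222877 and chr9:71911243-71911443. TOM1L2 acts in endosomal sorting and DRC3 in ciliary motility, FANCB belongs to the Fanconi anaemia core complex, NPAT drives histone gene transcription, ATM is the kinase of the DNA double-strand break response, and ABHD17B removes palmitate from proteins.
TOM1L2/DRC3: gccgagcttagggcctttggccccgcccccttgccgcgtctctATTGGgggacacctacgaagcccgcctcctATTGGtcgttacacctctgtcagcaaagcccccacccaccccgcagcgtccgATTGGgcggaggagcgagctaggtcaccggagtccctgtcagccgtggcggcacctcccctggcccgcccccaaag
FANCB/MOSPD2: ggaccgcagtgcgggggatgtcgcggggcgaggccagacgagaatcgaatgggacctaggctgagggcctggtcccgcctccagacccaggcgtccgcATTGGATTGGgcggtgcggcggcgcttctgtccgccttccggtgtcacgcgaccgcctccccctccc
NPAT/ATM: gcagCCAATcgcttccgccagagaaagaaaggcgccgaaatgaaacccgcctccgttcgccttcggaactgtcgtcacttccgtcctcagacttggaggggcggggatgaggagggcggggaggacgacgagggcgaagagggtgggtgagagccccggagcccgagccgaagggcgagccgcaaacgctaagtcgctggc
ABHD17B/C9orf85: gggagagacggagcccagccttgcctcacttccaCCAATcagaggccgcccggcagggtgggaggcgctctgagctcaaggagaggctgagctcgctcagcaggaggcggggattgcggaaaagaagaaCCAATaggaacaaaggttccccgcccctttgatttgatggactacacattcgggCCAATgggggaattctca

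The next 2 are the members with the highest fold enrichment that held no CCAAT there, from chr5:149551512-149551712 and chr10:110919202-110919355. They are shown because a tall peak did not require the box. CSNK1A1 is casein kinase 1 alpha, which phosphorylates beta-catenin, and SHOC2 is a scaffold of the RAS to ERK pathway.
CSNK1A1/ARHGEF37: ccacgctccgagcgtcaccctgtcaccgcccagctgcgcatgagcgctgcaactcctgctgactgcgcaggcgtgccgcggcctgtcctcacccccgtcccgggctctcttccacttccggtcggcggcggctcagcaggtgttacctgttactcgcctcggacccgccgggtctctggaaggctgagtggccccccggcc
BBIP1/SHOC2: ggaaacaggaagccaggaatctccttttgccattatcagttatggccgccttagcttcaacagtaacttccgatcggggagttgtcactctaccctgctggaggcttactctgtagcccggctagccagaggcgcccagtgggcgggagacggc

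The last 2 are the members with the highest fold enrichment that held a heat shock element, from chr14:20461600-20461800 and chr14:74084644-74084844, with the element in capitals. The element was searched on both strands as 3 units of GAA alternating in strand with 2 bases between units and at most 1 mismatch in its 9 fixed bases. PNP is purine nucleoside phosphorylase and ALDH6A1 a mitochondrial enzyme of valine breakdown. Both elements had 1 mismatch, and at ALDH6A1/LIN52 a pair of overlapping matches make up the capitals.
PIP4P1/PNP: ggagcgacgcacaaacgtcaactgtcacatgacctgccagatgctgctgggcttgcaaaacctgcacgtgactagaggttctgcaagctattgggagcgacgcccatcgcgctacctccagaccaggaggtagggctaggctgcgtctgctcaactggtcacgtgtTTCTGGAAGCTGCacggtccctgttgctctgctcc
ALDH6A1/LIN52: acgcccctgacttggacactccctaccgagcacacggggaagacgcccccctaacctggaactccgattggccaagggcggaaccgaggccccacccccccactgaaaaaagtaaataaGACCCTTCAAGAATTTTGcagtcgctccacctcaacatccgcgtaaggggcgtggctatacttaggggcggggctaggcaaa

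HSF1 peaks were found more often at divergent pairs than at other coding starts. GENCODE release 44 held 964 such start pairs at most 2 kb apart, which merged into 893 loci where pairs overlapped, and 395 loci (44.2%, 41.0% to 47.5%) had an HSF1 summit within 1 kb of both starts. Over all coding genes, 4302 of 19970 starts (21.5%) had an HSF1 summit within 1 kb. Split by arrangement, the share was 45.4% for the 1855 starts in a divergent pair and 19.1% for the 18115 others, a difference of 26.4 percentage points (24.0 to 28.7).

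The difference was smaller beside better matched starts. Coding starts outside a pair but with a noncoding gene starting upstream on the other strand within 1 kb had a peak in 33.7% of 1609 cases, 11.7 points (8.44 to 14.9) below the starts in pairs. Those with no such neighbour had one in 17.7% of 16506 cases. Among starts in CpG island-like sequence, with at least 55% G and C and an observed to expected CpG ratio of at least 0.6, the shares were 50.8% and 30.3%, a difference of 20.5 points (17.8 to 23.2). Where the starts of a pair are within reach of the same summit, a single peak was counted for both. The intervals of these differences between starts treat each start as independent, so they are too narrow.

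The distance between the starts went with occupancy. An HSF1 peak was present at 35.0% of the 137 loci with starts 1 to 50 bp apart, 39.5% of the 185 at 51 to 100 bp, 53.3% of the 240 at 101 to 200 bp and 61.8% of the 165 at 201 to 400 bp. The share was 50.7% of 69 loci at 401 to 800 bp and 9.28% of 97 at 801 to 2000 bp. Between the spacings of 201 to 400 bp and 1 to 50 bp the difference was 26.8 points (15.5 to 37.1). Widely spaced pairs are held back by the rule, since few positions are within 1 kb of both starts, and 30.9% of those 97 loci had a summit within 1 kb of either start.

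**Figure D1:**
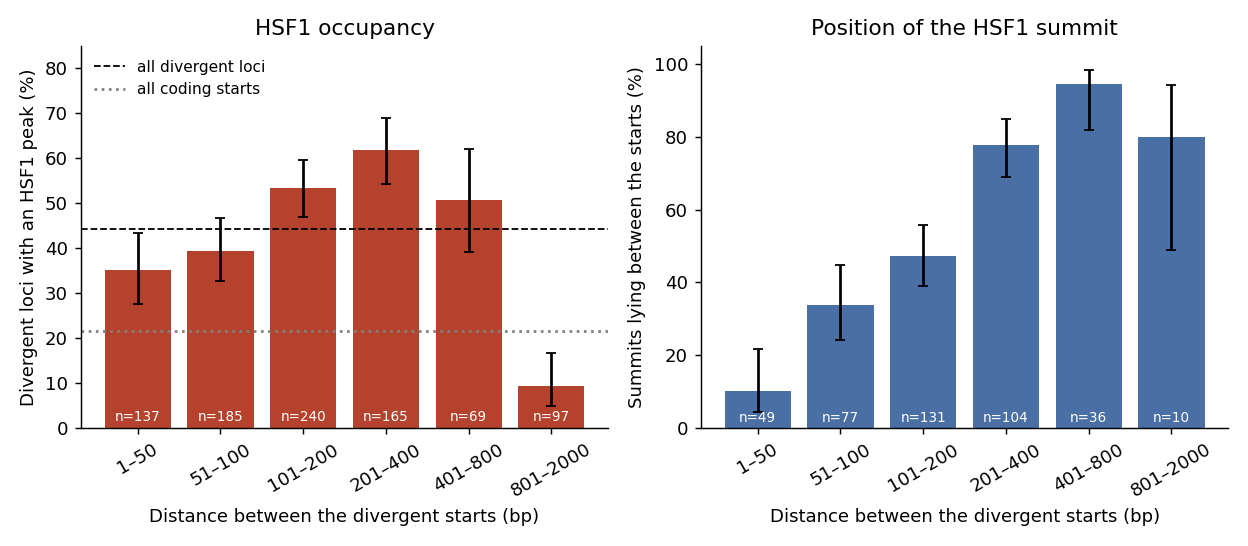
Left, percent of divergent loci with an HSF1 peak; right, percent of member summits lying between the starts, both by the distance between the starts in bp, with 95% Wilson intervals and n in each bar. Occupancy rose from 35.0% to 61.8% at 201 to 400 bp, and the share of summits between the starts from 10.2% to 94.4% at 401 to 800 bp.

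The members had a median of 153 bp between the starts (quartiles 80.5 and 258 bp, range 1 to 1230 bp), and 88.7% had starts at most 400 bp apart. Loci without an HSF1 peak had a median of 133 bp but a wider spread (quartiles 64 and 361.5 bp), and 75.5% of them, and 81.4% of all divergent loci, had starts at most 400 bp apart. The shortest spacings were at NEK1/CLCN3 (1 bp), CHMP1A/SPATA33 (2 bp) and SLC7A6OS/PRMT7 (5 bp), where the fold enrichments were 5.84, 6.94 and 7.43. CLCN3 encodes a chloride and proton exchanger and PRMT7 an arginine methyltransferase. The longest were at SLC18B1/RPS12 (1230 bp), ENSG00000288654/ZNF654 (1039 bp) and PSMB1/TBP (995 bp), with fold enrichments of 5.74, 8.59 and 11.3. At PSMB1/TBP, a proteasome subunit and the TATA-binding protein, the summit was 95 bp from the TBP start and 900 bp from that of PSMB1. Most members, 364, had 2 coding starts within 1 kb of the summit, 41 had 3 and 2 had 4.

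Summits sat close to a start. The median distance from the summit to the nearer start was 58 bp (52 to 66) at the members and 142 bp (135 to 151) at peaks with 1 coding start, and 66.3% against 38.0% lay within 100 bp. A member has more than 1 start to be near to, which shortens this distance by itself. The nearer start was on the minus strand for 215 members and on the plus strand for 192. The summit lay between the starts in 216 members (53.1%, 48.2% to 57.9%), and this share followed the spacing, with 10.2% at 1 to 50 bp, 47.3% at 101 to 200 bp and 77.9% at 201 to 400 bp. A wider spacing leaves more room for a summit between the starts, which raises this share by itself. With the starts of canonical transcripts in place of the outermost ones the share over all members was 75.2%. Under the summit GENCODE placed no coding gene in 194 members (47.7%), a UTR or other noncoding part of an exon in 147 (36.1%), an intron in 54 (13.3%) and coding sequence in 12 (2.95%). At peaks with 1 coding start these shares were 52.8%, 26.5%, 17.4% and 3.22%.

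**Figure D2:**
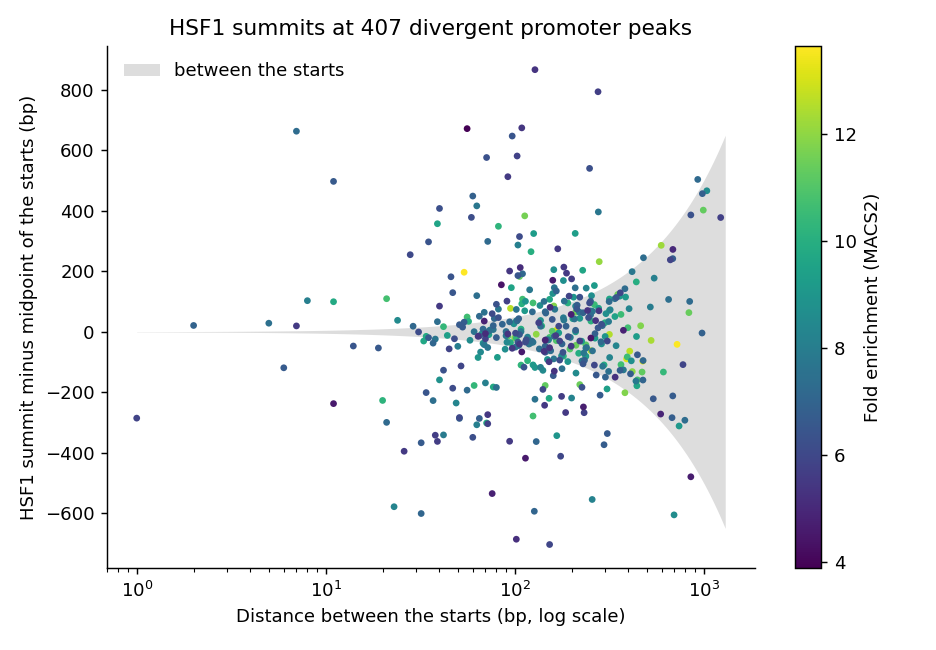
Each point is 1 of 407 HSF1 peaks, with the distance between the divergent starts on a log scale (bp), the summit position relative to their midpoint (bp, positive towards the plus-strand gene) and the fold enrichment as colour. The grey area is the sequence between the starts and holds 216 summits.

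At the edge of the rule, the members just inside 1 kb were SLC18B1/RPS12, with the farther start 993 bp from the summit, ENSG00000288654/ZNF654 (986 bp) and MIX23/FAM162A (969 bp). Just outside were SART3/ISCU (1021 bp), GPBP1L1/TMEM69 (1033 bp) and MKKS/SLX4IP (1042 bp). Fold enrichments were 5.74, 8.59 and 7.21 inside and 5.93, 6.64 and 6.09 outside.

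Peak height was slightly above that at peaks with 1 coding start by fold enrichment and equal to it by pileup. Fold enrichment sets the pileup, how many extended tags cover the summit, against the local background of MACS2. Its median was 7.43 (7.23 to 7.65) at the members, 7.14 (7.07 to 7.27) at peaks with 1 coding start and 6.54 at peaks with none. At peaks with several coding starts and no divergent pair it was 7.32 (7 to 7.63), an interval that overlaps that of the members. Peaks with 1 coding start and a noncoding start on the other strand had 7.33 (7.14 to 7.52), which also overlaps the interval of the members. The difference between the medians of the members and of peaks with 1 coding start was 0.28 (0.051 to 0.52), an interval that excludes 0. The interval held 0 with a −log10 q of at least 5 (0.16, -0.041 to 0.40) and with summits within 2 kb (0.19, -0.022 to 0.45). It also held 0 for −log10 p in place of fold enrichment (0.46, -0.084 to 0.99). The median pileup was 14 tags both at the members and at peaks with 1 coding start. It was 15 tags (14 to 16) at peaks with several coding starts and no divergent pair. The members were wide, with a median length of 435 bp (413 to 447) against 376 bp (369 to 383) at peaks with 1 coding start. Peaks with several coding starts and no divergent pair had 410 bp (397 to 440), an interval that overlaps that of the members. Of the members, 17.2% (13.8% to 21.2%) had a fold enrichment of at least 9.79, as 10.0% of all HSF1 peaks did, against 12.4% (11.2% to 13.6%) of peaks with 1 coding start. For peaks with several coding starts and no divergent pair the share was 13.5% (10.2% to 17.7%), which overlaps the interval of the members. Among the members fold enrichment ran from 3.88 to 13.6 and pileup from 5 to 55 tags. A pileup of at most 10 was seen at 95 members, so single low members rest on few tags.

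The member with the highest fold enrichment was FHIP1B/CNGA4 on chromosome 11 (13.6, pileup 38). FHIP1B takes part in vesicle transport by dynein and CNGA4 is a subunit of the olfactory cation channel. Its starts were 54 bp apart and the summit was in an intron, 170 bp past the CNGA4 start. KCTD9/CDCA2 followed with 13.6 at a pileup of 49, and CDCA2 directs protein phosphatase 1 to chromatin in mitosis. TOM1L2/DRC3 (13.2, pileup 38), CSNK1A1/ARHGEF37 (13.1, pileup 30) and FANCB/MOSPD2 (13.04, pileup 29) came next, each with the summit between the starts. The sequences of these last 3 pairs are printed above, with 3, 0 and 2 CCAAT boxes.

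NPAT/ATM had a fold enrichment of 12.7 (pileup 37), with starts 406 bp apart and the summit 139 bp from the NPAT start. ABHD17B/C9orf85 had 12.5 and both PIP4P1/PNP and PCNA/CDS2 had 12.4, each at a pileup of 41. PCNA is the sliding clamp of DNA replication and CDS2 a phospholipid enzyme, and 3 CCAAT boxes lay within 100 bp of their summit, at -45, 9 and 82 bp.

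Among the remaining members the highest pileups were at IDI1/WDR37 (51 tags), NDUFA11/ENSG00000267314 (49), MBOAT7/TSEN34 (48), SRGAP2B/FAM72D (45) and PMEL/RAB5B (40). IDI1 is an isomerase of the cholesterol pathway, NDUFA11 a complex I subunit and TSEN34 a tRNA splicing endonuclease subunit. SRGAP2B and FAM72D lie in recent segmental duplications with near-identical copies elsewhere on chromosome 1. How tags that fit several copies were treated is not given in the sources used here, so tags at this peak may come from another copy. A further peak of 17 tags lay in the TSEN34 locus, 1 of 12 loci that held 2 peaks. The TCP1/MRPL18 locus was another, with summits at 25 and 13 tags.

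CCAAT was common at the members. It was present within 100 bp of 170 of 407 summits (41.8%, 37.1% to 46.6%), against 36.3% (34.6% to 38.1%) of peaks with 1 coding start and 26.0% of windows of the same length at all 19970 coding starts. The difference between the peak classes was 5.44 points (0.42 to 10.6). It was 2.79 points (-2.33 to 7.92) once the comparison peaks were weighted to the lower GC content of the members, whose median was 65.2% against 67.2%. At least 2 boxes were found at 19.2% of members and 14.6% of the others, a difference of 4.56 points (0.79 to 8.85). For the longer form RRCCAATSR, in which R stands for a purine and S for G or C, the shares were 18.2% and 17.3%, a difference of 0.88 points (-2.85 to 5.13), and 8.58% of all coding starts held it.

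The boxes lay near the summit. Within 40 bp of the summit the members had 4.51 CCAAT boxes per kb and 300 to 500 bp away 1.04, a ratio of 4.32. At peaks with 1 coding start the values were 3.43 and 0.965, a ratio of 3.55, and at peaks with no coding start 1.89 and 1.24. Of the 287 boxes within 100 bp of a member summit, 210 (73.2%) lay between the starts, at a median of 58.5 bp upstream of the nearer start. At peaks with 1 coding start 1241 of 1677 boxes (74.0%) lay upstream of the start, at a median of 103 bp. These shares are not like for like, since every base at a divergent pair is upstream of at least 1 start. A box between the starts can be no farther from the nearer one than their midpoint, which shortens this distance by itself. Members with CCAAT had a median fold enrichment of 7.88 (7.37 to 8.55) and those without 7.23 (6.99 to 7.46), and at peaks with 1 coding start these medians were 7.64 and 6.94.

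CCAAT at the members varied with the spacing of the starts. It was within 100 bp of the summit in 24.5% of members with starts 1 to 50 bp apart, 36.4% at 51 to 100 bp, 43.5% at 101 to 200 bp and 51.9% at 201 to 400 bp, and then in 44.4% of 36 members at 401 to 800 bp and 30% of 10 beyond. The difference between 201 to 400 bp and 1 to 50 bp was 27.4 points (10.8 to 41.0). The median fold enrichment in these 6 spacings was 6.94, 7.22, 7.46, 7.78, 8.02 and 7.03. Around the midpoint, within 250 bp, CCAAT was in 66.1% of loci with a peak whose starts were 101 to 400 bp apart and 44.6% of those at 1 to 100 bp, a difference of 21.5 points (10.5 to 31.8). In loci without a peak the shares were 52.0% and 34.3%, a difference of 17.7 points (7.65 to 27.2).

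Other motifs were compared over the same 201 bp, 12 in all with CCAAT, on both strands. The ETS letters CCGGAAG were found at 20.1% of members and 13.6% of peaks with 1 coding start, a difference of 6.58 points (2.75 to 10.9), and at 10.2% of all coding starts. The letters ACTACAA, part of the ZNF143 site, were at 6.14% and 3.01%, a difference of 3.13 points (1.07 to 5.96), and at 1.92% of all starts. With the interval widened for 12 comparisons these 2 differences had lower bounds of 1.15 and 0.31 points, and those of CCAAT and the heat shock element were -1.82 and -0.34. Beside the 325 peaks with several coding starts and no divergent pair, the interval held 0 for each of these motifs. The difference was 1.69 points (-4.14 to 7.35) for ETS, 1.83 (-1.57 to 5.10) for ZNF143, 6.38 (-0.73 to 13.3) for CCAAT and 0.92 (-1.89 to 3.57) for the heat shock element. Among summits within 100 bp of a start the ETS difference was 2.90 points (-2.15 to 8.58), with 21.1% and 18.2%.

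The GC box GGGCGG was at 67.6% of each class (difference -0.010 points, -5.00 to 4.68) and at 46.9% of windows at all coding starts. TATAAA was at 1.72% of members and 1.70% of the others, against 7.11% of all starts. For the NRF1 letters GCATGCGC, the E-box CACGTG, the CRE TGACGTCA and the YY1 letters AAGATGGC, the members had 5.16%, 8.85%, 2.21% and 2.21%, and all coding starts 2.97%, 5.88%, 1.87% and 3.01%. Against peaks with 1 coding start each of these 4 differences had an interval holding 0, from -0.97 points for YY1 to 1.48 points for the E-box.

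Heat shock elements were rare. They were within 100 bp of 15 of 407 member summits (3.69%, 2.25% to 5.99%) and of 1.94% of peaks with 1 coding start, a difference of 1.75 points (0.20 to 4.10, or -0.34 to 5.52 when widened for 12 comparisons), while 3.04% of the windows at all coding starts held one. Within 50 bp of the summit the difference was 0.26 points (-0.66 to 2.001). Elements with no mismatch were at 3 members, MED19/ENSG00000288534 (fold enrichment 6.76), FBXO15/TIMM21 (6.74) and ST13/XPNPEP3 (7.81). ST13 is a co-chaperone that binds HSP70, and its element was 67 bp from the summit. The other 12 members with an element were PIP4P1/PNP, ALDH6A1/LIN52, ARMH4/ARID4A, CIP2A/DZIP3, TRAPPC2/OFD1, GDAP2/WDR3, SELENOF/HS2ST1, PPIL3/NIF3L1, CDC26/PRPF4, AZI2/ENSG00000283563, CDKL3/UBE2B and RBIS/CA13. LIN52 is a subunit of the DREAM cell cycle complex and CIP2A an inhibitor of the phosphatase PP2A. The highest fold enrichments in this group, 12.4 and 11.8, were at PIP4P1/PNP and ALDH6A1/LIN52, whose sequences are printed above.

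Chaperone genes are the best known HSF1 targets. Of the 64 genes of a chaperone and co-chaperone list, 16 were in 15 divergent loci, and 6 of these loci had an HSF1 peak (40%, beside 44.2% of all divergent loci). Of the 48 chaperone genes outside such pairs, 22 (45.8%) had an HSF1 peak, beside 19.1% of all coding starts outside pairs. Those 6 were LONP1/CATSPERD (fold enrichment 6.80), PRADC1/CCT7 (8.68), TCP1/MRPL18 (10.1), PSPH/CCT6A (9.22), THAP5/DNAJB9 (10.2) and BAG1/CHMP5 (8.76). LONP1 is a mitochondrial protease, CCT7, TCP1 and CCT6A are subunits of the cytosolic chaperonin TRiC, DNAJB9 is a J protein of the endoplasmic reticulum and BAG1 a nucleotide exchange factor of HSP70. Within 250 bp of the midpoint of the starts, 1 of these 6 loci, PSPH/CCT6A, and 3 of the 9 without a peak held a heat shock element. Those 3 were HSPA1L/HSPA1A with 1 element, APTX/DNAJA1 with 3 and CCT4/COMMD1 with 2, and HSPA1A encodes stress-inducible HSP70. The nearest HSF1 summit was 362371 bp from the HSPA1A start and 51431 bp from that of DNAJA1. HSPA1B, a similar HSP70 gene near HSPA1A, was 350176 bp from its nearest summit. Whether tags that fit both of these genes were kept is not given in the sources used here. Their lack of a peak is therefore not shown to be a lack of HSF1. The gene for HSF1 itself, paired with BOP1, had no HSF1 peak either.

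HSPE1 and HSPD1, the mitochondrial chaperonin genes that share a promoter, were not among the members. The outermost HSPD1 start in GENCODE, at 197516737 on chromosome 2, lies on the far side of HSPE1, so the rule saw no divergent pair. The HSF1 peak beside the HSPE1 start, 71 bp away, had 52 tags and a fold enrichment of 12.3, and with the starts of canonical transcripts, at 197499840 and 197500379, it would belong to such a pair. With those starts the count of members was 500.

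Other gene groups were described by counts. Of 34 divergent loci with a DNA repair gene, 19 had an HSF1 peak, among them NPAT/ATM, FANCB/MOSPD2 and PMS2/AIMP2 (fold enrichment 10.7), and 15 had none, among them BRCA1/NBR1 and XPO5/POLH. Of 19 loci with a gene of DNA replication and mitosis, 11 had one, among them PCNA/CDS2, AURKA/CSTF1 (9.82) and TK1/AFMID (9.13). All 3 loci with an aminoacyl-tRNA synthetase gene had one, SARS2/MRPS12 (10.2), RARS2/ORC3 (7.37) and LYRM4/FARS2 (5.42). Zinc finger genes had 15 of 30, mitochondrial ribosomal proteins 7 of 17, oxidative phosphorylation subunits 6 of 21 and cytosolic ribosomal proteins 4 of 17. These shares are read beside 44.2% for all divergent loci.

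Replication-dependent histone genes stood at the other end. They made up 15 divergent loci, mostly H2A beside H2B, and only H2AC25/H2BC26 had a peak (fold enrichment 6.44, pileup 12). None of the 43 histone genes outside such pairs had one, beside 19.1% of all starts outside pairs. These genes exist in many similar copies, and whether tags that fit several copies were kept is not given in the sources used here. None of 18 liver marker genes, among them ALB and APOA1, was in a divergent pair, and 5 of the 18 (27.8%) had an HSF1 peak within 1 kb of the start, beside 21.5% of all coding starts. None of the 18 had an H3K27ac summit there, beside 2.73% of all coding starts.

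Divergent loci with and without an HSF1 peak differed in sequence. Within 250 bp of the midpoint of the starts, a window that the peak does not place, CCAAT was present in 58.7% of the 395 loci with a peak and 43.0% of the 498 without, a difference of 15.8 points (9.17 to 22.2). For RRCCAATSR the shares were 29.1% and 13.5%, a difference of 15.7 points (10.3 to 21.1). GGGCGG was in 86.6% and 69.7%, a difference of 16.9 points (11.5 to 22.1), and CCGGAAG in 34.7% and 25.7%, a difference of 8.98 points (2.93 to 15.02). TATAAA went the other way, with 4.81% and 12.7%, a difference of -7.84 points (-11.5 to -4.15). Heat shock elements were in 8.10% and 6.83%, a difference of 1.27 points (-2.17 to 4.92). The NRF1 letters were in 11.4% and 7.23%, a difference of 4.16 points (0.35 to 8.19), and those of ZNF143 in 9.87% and 6.22%, a difference of 3.65 points (0.083 to 7.44). The differences of YY1 (-2.60 points, -6.17 to 1.10), the E-box (3.54 points, -0.93 to 8.17) and CRE (1.501 points, -1.25 to 4.50) had intervals that hold 0. With intervals widened for the 12 features compared, the 11 motifs and an H3K27ac peak, those of CCAAT (6.11 to 24.995), RRCCAATSR (7.81 to 23.6), GGGCGG (8.98 to 24.4), CCGGAAG (0.16 to 17.8) and TATAAA (-13.2 to -2.33) still excluded 0, and those of NRF1 (-1.41 to 10.2) and ZNF143 (-1.58 to 9.35) did not.

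Loci without a peak were more often widely spaced, so the same comparison was made for starts at most 400 bp apart, 351 loci with a peak and 376 without. The CCAAT difference was then 16.1 points (8.88 to 23.2), that of RRCCAATSR 14.2 (8.17 to 20.1), of GGGCGG 7.60 (2.07 to 13.1), of TATAAA -4.47 (-8.28 to -0.70), of CCGGAAG 5.88 (-0.98 to 12.7), of NRF1 2.92 (-1.55 to 7.48) and of ZNF143 2.51 (-1.56 to 6.68). Widened for 12 features, the intervals of CCAAT (5.50 to 26.3) and RRCCAATSR (5.39 to 22.8) excluded 0 at these loci, and those of GGGCGG (-0.54 to 15.6) and TATAAA (-10.2 to 1.17) did not. The median GC content was 63.7% in loci with a peak and 62.3% in those without, and weighting the latter to the GC content of the former left the CCAAT difference at 18.02 points (11.2 to 24.8).

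**Figure D3:**
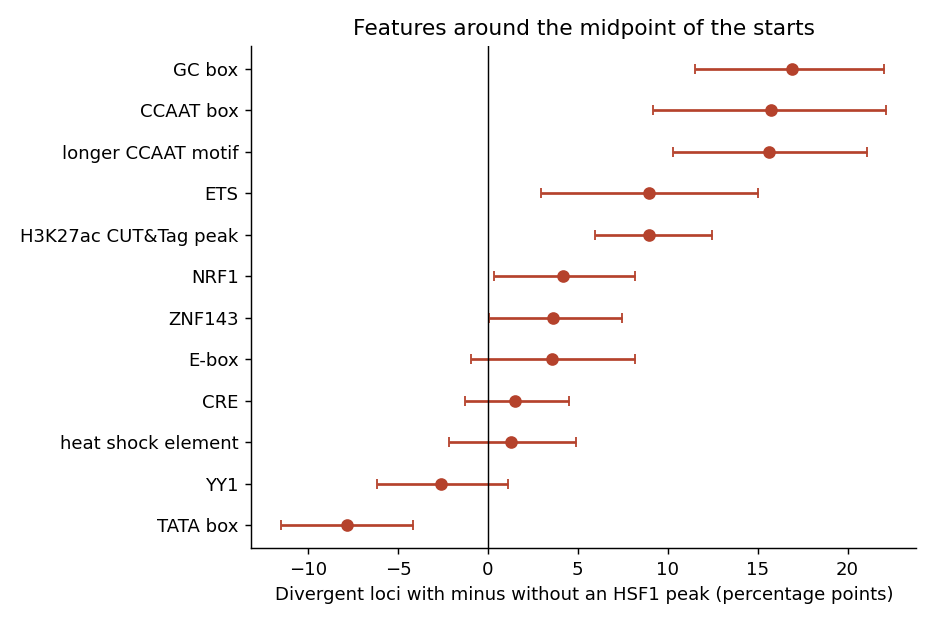
Share of divergent loci with a feature within 250 bp of the midpoint of the starts, 395 loci with an HSF1 peak minus 498 without, in percentage points with 95% Newcombe intervals. GC box, CCAAT and its longer form lie about 16 points above 0, and the TATA box 7.84 points below.

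H3K27ac, a mark of active promoters and enhancers, was seen at few members. Of the 407 peaks, 45 (11.1%, 8.37% to 14.5%) shared at least 1 base with an H3K27ac peak, against 7.82% (6.90% to 8.86%) of peaks with 1 coding start, a difference of 3.24 points (0.35 to 6.78). Over all HSF1 peaks the share was 8.56%. The difference of the members from peaks with no coding start was 2.50 points (-0.36 to 6.03). Peaks at 1 coding start with a noncoding start on the other strand had 10.0%, and the difference from these was 1.06 points (-2.45 to 4.95). Peaks with several coding starts and no divergent pair shared one in 39 of 325 cases, and the difference of the members from these was -0.94 points (-5.75 to 3.67). The share rose with height, from 6.32% of members with a pileup of at most 10 to 16.2% of those above 20, and from 4.85% to 13.4% at peaks with 1 coding start. Weighted to the pileup of the members, the difference from peaks with 1 coding start was 2.87 points (-0.35 to 6.08). Members with an H3K27ac peak had a median fold enrichment of 8.24 (7.52 to 9.09) and the others 7.33 (7.14 to 7.59). Among all divergent loci, an H3K27ac peak touched the window around the midpoint in 10.4% of those with an HSF1 peak and 1.41% of those without, a difference of 8.97 points (5.96 to 12.4).

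The H3K27ac list was short. It held 1291 peaks, of which 33.8% had a summit within 1 kb of a coding start and 46.9% shared bases with an HSF1 peak. A promoter without an H3K27ac peak was therefore not shown to lack the mark, and a site of both lists may be tagged whatever the antibody, which was not tested.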

How the data were processed

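Peaks were taken as deposited. Per the file headers, the authors ran MACS 2.1.4 with no control on hg38 alignments at a p cutoff of 1e-05, with tags shifted by -100 bp and extended to 200 bp. Bowtie and Picard are named in the submitters' processing notes. The deposited columns used were the pileup signal, the fold enrichment ratio and the −log10 p-value. The −log10 q-value column holds values although the header says that q was not calculated, and it served only in an alternative. The H3K27ac ChIP-seq lists use hg19 and were not used here. Peaks outside chromosomes 1 to 22 and X were left out, which left 7129 of 7342 HSF1 peaks and 1291 of 1392 H3K27ac peaks.

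Gene starts were read from GENCODE release 44 and sequence from hg38, with Python 3.11.15, pandas 2.3.3, scipy 1.17.1 and pysam 0.24.0. Shares have 95% Wilson intervals, their differences Newcombe intervals and medians intervals from order statistics. Intervals of differences between medians are approximate, with arms that are the root of the summed squared arms of both medians. Intervals of weighted differences are normal ones. The peak classes, gene pairs, CCAAT counts and the Newcombe and median intervals were checked on simulated data, and the intervals of differences between medians were not. The 10 members with the highest fold enrichment, the 5 with the highest pileup among the rest, those with a chaperone gene or a heat shock element, and those at the extremes of spacing and at the 1 kb limit were named, and HSPE1 and HSPD1. One of the 10 is not reported here. Further pairs were named from the gene lists. Printed sequences were limited to the stretch between the starts with none from chromosome 8, and NEK1/CLCN3, the list examples and the distances of chaperone starts were given after their values were seen. The members and lists were chosen with earlier results of these data known. Cells of 1 line gave 1 library per antibody, so nothing here measures the spread between cultures. Alternatives in peak threshold, distance, starts, windows, comparison group and weighting were tried.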

Additional observations from a re-analysis of the deposited data

How the results depend on the processing

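Of 84 values recomputed under alternatives, 71 of them planned and 13 chosen after seeing the data, 60 stayed within the tolerance set for their kind. For the number of members this was 1.5 times the reported count, for a share its reported 95% interval, and for a difference the same sign with an interval on the same side of excluding or holding 0, whatever its size. The higher share of starts with a peak in divergent pairs kept its sign and its interval above 0 in all 5 alternatives (21.9 to 30.1 points), and so did the CCAAT difference between loci with and without a peak in all 8 (12.1 to 18.3 points). The differences between peak classes were less stable. Each difference given below had an interval that holds 0, so that the call was lost where there had been one, except the single difference named as having an interval above 0. The cause was not tested.

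With a −log10 q of at least 5, 38.4% of loci had a peak, the fold enrichment difference was 0.16 and the CCAAT difference 5.04 points. With summits within 2 kb the fold enrichment difference was 0.19 and the H3K27ac difference 2.35 points. With canonical transcript starts 47.9% of loci had a peak, 75.2% of summits lay between the starts, the CCAAT difference was 3.97 points and that of the longer form turned to -0.061 points. Without readthrough genes the H3K27ac difference was 2.76 points. Against peaks with no noncoding start on the other strand the differences were 4.96 points for CCAAT and 1.46 for the heat shock element. The medians of pileup differed by 0 and those of −log10 p by 0.46. The heat shock element difference was 0.26 points in windows of 50 bp and 2.105 points in windows of 200 bp to either side, where the longer CCAAT form differed by 4.43 points with an interval above 0. Weighted for GC content, the differences were 2.79 points for CCAAT, -0.087 for the longer form and 1.64 for the heat shock element. Among summits within 100 bp of a start, they were 4.65 points for CCAAT and 2.90 for the ETS letters. The H3K27ac difference was 2.87 points when weighted for pileup and 2.65 with an H3K27ac summit within 500 bp. No paired analysis was possible because each antibody had 1 library, and for the same reason no replicate could be left out. A lone library with 2712212 tags limits how many weak sites reach a peak, and an absent peak is not shown to be an absence of HSF1.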
